A study of Mus musculus and Homo sapiens with 107 samples.

Results

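The genes described here encode the 10 subunits by which the SWI/SNF chromatin remodelling complexes are told apart. They were chosen by name, with earlier results of these data known. They are ARID1A, ARID1B and DPF2 for BAF, ARID2, PBRM1, BRD7 and PHF10 for PBAF, and BRD9, BICRA and BICRAL for ncBAF. All 10 were found by Ensembl identifier among the 22842 identifiers that the gene count tables of both cell lines hold. The symbols come from the list that defines the set, since the tables carry identifiers alone. RNA-seq was made from H1299 and A549, which are long-established human lung cancer lines (non-small-cell) and are wild type in genotype per the labels. Each line received 5 µM BRM014 for 12 h or DMSO, its solvent, with 3 libraries in each of 4 groups: BRM014-treated H1299, DMSO-treated H1299, BRM014-treated A549 and DMSO-treated A549. The series holds 107 samples, and the 95 made with other assays or from other cells were not used here.

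SWI/SNF complexes use an ATPase, BRM or BRG1, to slide or evict nucleosomes, which opens enhancers and promoters to other factors. BRM014 is an allosteric inhibitor of both ATPases, and both lines are known as lines that lack functional BRG1, so that BRM is the remaining ATPase. The ATPase and a core of shared subunits are common to all 3 complexes, and the defining subunits are added to that core. BAF carries ARID1A or ARID1B and is known mainly from enhancers, PBAF carries ARID2 and PBRM1 and is known mainly from promoters, and ncBAF carries BRD9 with BICRA or BICRAL. The comparisons address whether the mRNA levels of the defining subunits differed after 12 h with the inhibitor, and whether the lines had the same levels without it.

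Total counts per library were 30602193 to 41780029 in BRM014-treated H1299, 28412113 to 40072734 in DMSO-treated H1299, 42417643 to 44910378 in BRM014-treated A549 and 40684360 to 50177678 in DMSO-treated A549. Levels are counts scaled to a common library total (CPM) with TMM factors over the 12 libraries. They are not per length, so a gene is compared with itself across groups and not with other genes. Fold changes are BRM014 over DMSO from edgeR's quasi-likelihood test with each line fitted alone, whose scaling differs slightly from that of the CPM. P-values are adjusted by the Benjamini-Hochberg method over all genes tested, and "rose" and "fell" mark an adjusted p under 0.05. Per the labels, RNA spike-ins were given in proportion to cell number, but their counts were not used here, so a gene's difference is measured against the rest of its library. In such bulk samples, fewer expressing cells and less RNA per cell cannot be told apart. No label says that a group's libraries were made from separate cultures, so the spread behind each p-value may be technical. In A549, 2 of the BRM014 libraries share a column header and carry no number of their own; they are called libraries a and b.

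The 10 genes differed little between BRM014 and DMSO. In H1299, 2 of the 10 rose and 0 fell, beside 22.0% of all genes tested that passed the threshold, 9.29% of them upward and 12.7% downward. In A549, 3 of the 10 rose and 0 fell, beside 37.0% of all genes tested, 17.7% upward and 19.4% downward. At an unadjusted p under 0.05, edgeR put 1 gene lower in H1299 and 0 in A549. DESeq2 and limma-voom called 0 falls among the 10 in either line. Taken in either direction, these counts of called genes are near the background share in both lines. With library totals in place of TMM scaling, the called genes that were higher made up 58.4% of all calls in H1299, beside 42.2% with TMM, and 60.9% in A549, beside 47.7%, and 4 of the 10 genes rose in H1299. BICRAL rose in both lines. ARID1B rose in A549 and was not called in H1299, and the difference between these responses was called. The lines themselves differed by larger folds. In DMSO, 9 of the 10 genes were called different between H1299 and A549, a count near the background of 85.7% of all genes tested.

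**Figure D1:**
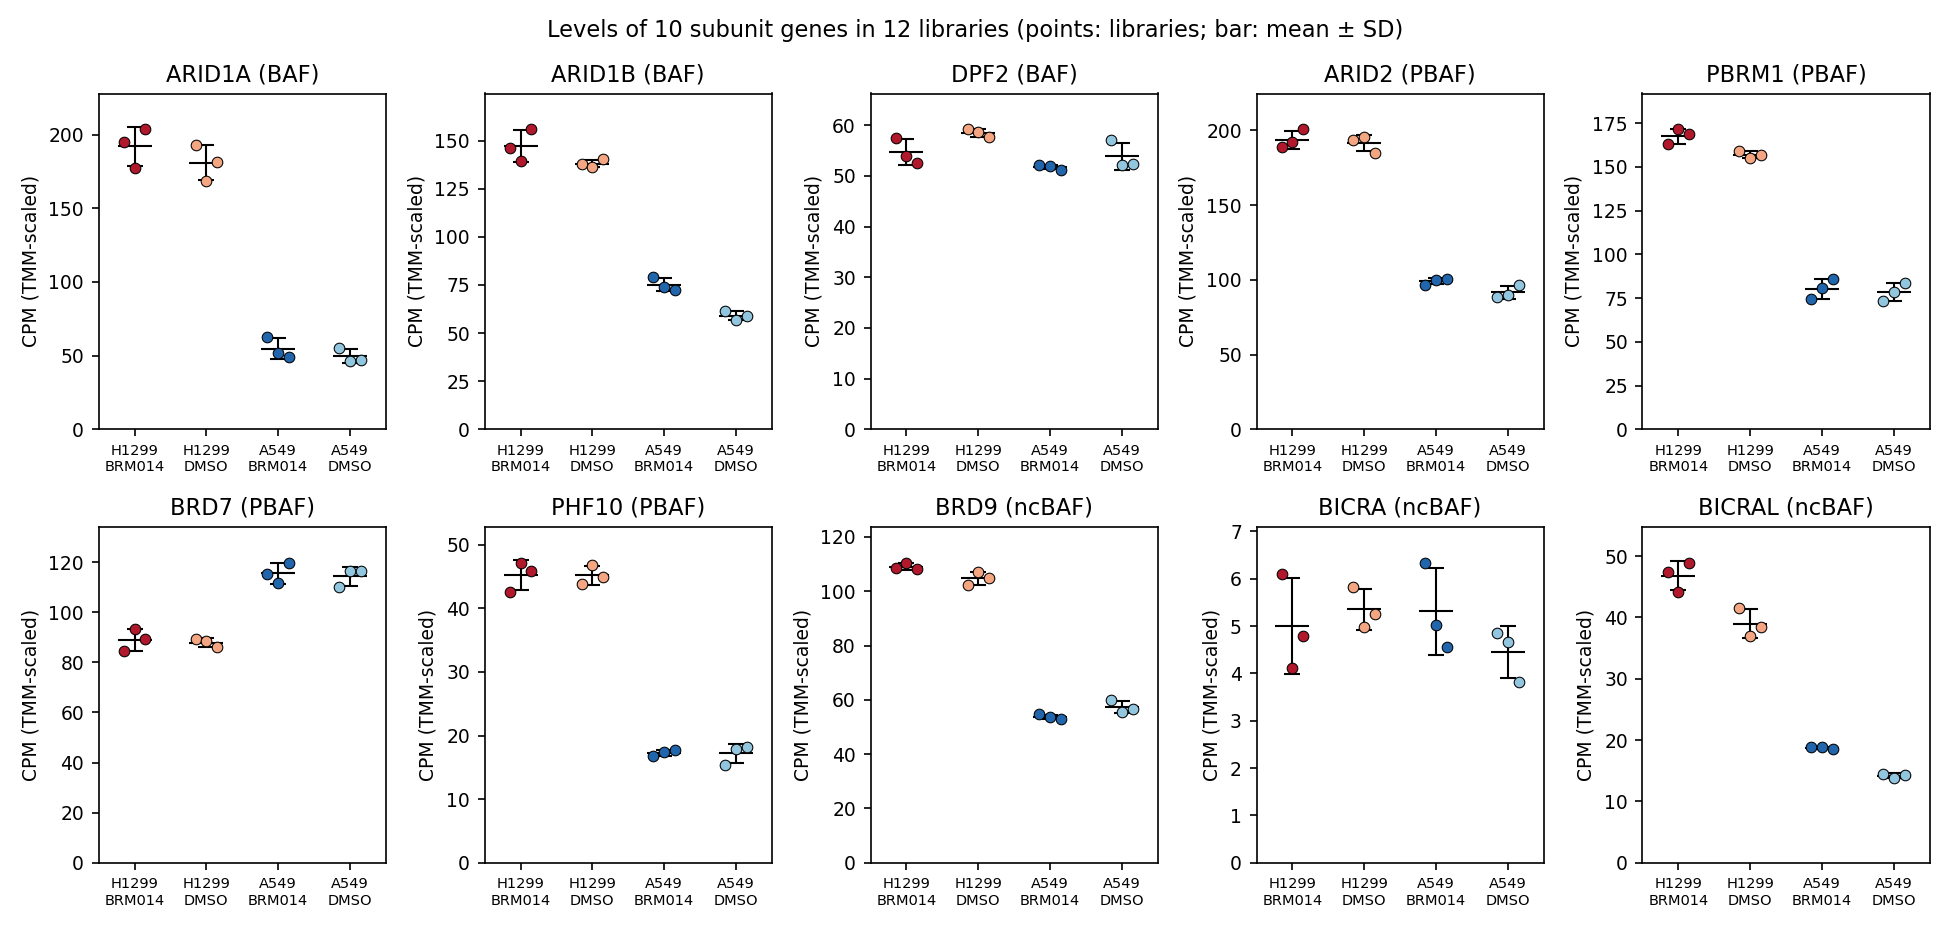
Level of each of the 10 subunit genes in CPM after TMM scaling (y axis, from 0, a scale for each gene) in the 4 groups of 3 libraries; points are libraries and bars are the mean ± SD. The lines stand far apart for all genes but BRD7, DPF2 and BICRA. BRD7 is lower in H1299, with means of 87.9 CPM in DMSO-treated H1299 and 114 CPM in DMSO-treated A549. Group means lie between 51.8 and 58.5 CPM for DPF2 and between 4.45 and 5.35 CPM for BICRA. BRM014 and DMSO libraries separate clearly for BICRAL in both lines and for ARID1B in A549.

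Among the BAF genes, ARID1A (ENSG00000117713) encodes the large ARID subunit that is often mutated in human cancers. It was at 195, 177 and 204 CPM in BRM014-treated H1299, against 193, 169 and 182 CPM in DMSO-treated H1299. In A549 it was at 62.8 CPM in library a, 52.1 CPM in library b and 49.4 CPM in replicate 3 of the BRM014 group, against 55.4, 46.5 and 47.3 CPM with DMSO. The treated and control libraries overlapped in both lines. The log2 fold change was 0.08 (SE 0.04, edgeR adjusted p = 0.171) in H1299 and 0.16 (SE 0.09, edgeR adjusted p = 0.207) in A549. The 95% intervals, -0.00 to 0.16 and -0.04 to 0.36 on the log2 scale, span values near 0 and small rises. The values turned on single libraries. They were as low as 0.03 in H1299 without DMSO replicate 2 and 0.03 in A549 without library a. Without BRM014 replicate 2 in H1299 the edgeR adjusted p was 0.00103 at a log2 fold change of 0.14, and without DMSO replicate 1 in A549 it was 0.0436 at 0.25.

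ARID1B (ENSG00000049618) encodes the paralog that takes the place of ARID1A in a BAF complex. It was at 146, 139 and 156 CPM in BRM014-treated H1299, against 138, 136 and 140.2 CPM in DMSO-treated H1299. In A549 the BRM014 libraries had 79.2, 73.8 and 72.5 CPM, against 61.4, 56.7 and 58.8 CPM in the DMSO libraries. The A549 groups did not overlap, and the lowest treated library lay well above the highest control, while the H1299 groups overlapped. ARID1B rose by 29.4% in A549 (95% interval 19.5% to 40.2%), a log2 fold change of 0.37 (SE 0.05, edgeR adjusted p = 0.000163). In H1299 the log2 fold change was 0.09 (SE 0.04), with an unadjusted edgeR p of 0.0198 and an adjusted p of 0.0779. The H1299 value was 0.13 with an edgeR adjusted p of 0.00137 without BRM014 replicate 2, and 0.04 with one of 0.491 without BRM014 replicate 3. In A549, the call held in each of 13 alternative settings, with log2 fold changes of 0.32 to 0.42.

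DPF2 (ENSG00000133884) encodes a PHD-finger subunit that reads histone modifications and is built into BAF but not into PBAF or ncBAF. Its levels were 57.5, 54.0 and 52.6 CPM in BRM014-treated H1299, against 59.2, 58.6 and 57.7 CPM in DMSO-treated H1299. In A549 they were 52.1, 52.0 and 51.2 CPM with BRM014, against 57.0, 52.2 and 52.4 CPM with DMSO. In both lines all treated libraries lay below all control libraries, in A549 by a narrow margin. Neither difference passed the threshold: the log2 fold change was -0.10 (SE 0.04, edgeR adjusted p = 0.0866) in H1299 and -0.04 (SE 0.05, edgeR adjusted p = 0.625) in A549. Without BRM014 replicate 1, the H1299 value was -0.14 with an edgeR adjusted p of 0.0165.

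Among the PBAF genes, ARID2 (ENSG00000189079) encodes the ARID subunit that is specific to that complex. Levels were 189, 192 and 201 CPM in BRM014-treated H1299, against 193, 195 and 185 CPM in DMSO-treated H1299. A549 had 96.6, 99.9 and 101 CPM with BRM014, against 88.5, 89.8 and 96.3 CPM with DMSO. The H1299 groups overlapped, whereas in A549 the lowest treated library lay just above the highest control. ARID2 rose by 9.83% in A549 (95% interval 2.73% to 17.4%), a log2 fold change of 0.14 (SE 0.04, edgeR adjusted p = 0.0309), and was at 0.02 (SE 0.03, edgeR adjusted p = 0.770) in H1299. The A549 call was lost when library b, BRM014 replicate 3, DMSO replicate 1 or DMSO replicate 2 was left out, with edgeR adjusted p-values of 0.100, 0.0874, 0.0815 and 0.136.

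PBRM1 (ENSG00000163939) encodes polybromo, the subunit with several bromodomains that bind acetylated histones. It was at 163, 171 and 169 CPM in BRM014-treated H1299, against 159, 155 and 157 CPM in DMSO-treated H1299. In A549 it was at 74.3, 80.6 and 86.0 CPM with BRM014, against 73.4, 78.5 and 83.7 CPM with DMSO. All treated H1299 libraries exceeded all controls, and the A549 groups overlapped almost fully. PBRM1 rose by 6.64% in H1299 (95% interval 2.05% to 11.4%), a log2 fold change of 0.09 (SE 0.03, edgeR adjusted p = 0.0287). The A549 value was 0.05 (SE 0.06, edgeR adjusted p = 0.523). The H1299 call was lost in the joined fit of the 12 libraries (edgeR adjusted p = 0.227). It was also lost without BRM014 replicate 3 or without DMSO replicate 1, 2 or 3, with edgeR adjusted p-values of 0.0910, 0.0778, 0.121 and 0.0824.

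BRD7 (ENSG00000166164), the bromodomain subunit of PBAF and the paralog of BRD9, had 84.5, 93.3 and 89.3 CPM in BRM014-treated H1299, against 89.3, 88.3 and 86.0 CPM in DMSO-treated H1299. In A549 it had 115, 112 and 119.6 CPM with BRM014, against 109.8, 116 and 117 CPM with DMSO. PHF10 (ENSG00000130024), a PHD-finger subunit of PBAF, had 42.6, 47.1 and 45.8 CPM in BRM014-treated H1299, against 43.9, 46.9 and 44.9 CPM in DMSO-treated H1299. Treated and control libraries of both genes overlapped in both lines, and the A549 values of PHF10 were 16.7, 17.4 and 17.6 CPM with BRM014, against 15.4, 17.9 and 18.2 CPM with DMSO. BRD7 had log2 fold changes of 0.02 in H1299 and 0.04 in A549, with edgeR adjusted p-values of 0.803 and 0.537. For PHF10 the values were 0.00 in H1299 and 0.03 in A549, with edgeR adjusted p-values of 0.994 and 0.774. The 95% intervals of the log2 fold change were -0.06 to 0.09 for BRD7 and -0.09 to 0.09 for PHF10 in H1299. In A549 they were -0.06 to 0.13 for BRD7 and -0.13 to 0.19 for PHF10.

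Among the ncBAF genes, BICRAL (ENSG00000112624) encodes a scaffold subunit that is the paralog of BICRA and takes its place in the complex. It was at 47.4, 44.1 and 48.9 CPM in BRM014-treated H1299, against 41.5, 37.0 and 38.4 CPM in DMSO-treated H1299. A549 libraries had 18.8, 18.9 and 18.6 CPM with BRM014, against 14.5, 13.7 and 14.3 CPM with DMSO. Every treated library exceeded every control library of its line. BICRAL rose by 19.5% in H1299 (95% interval 11.6% to 28.0%), a log2 fold change of 0.26 (SE 0.05, edgeR adjusted p = 0.000101). In A549 it rose by 34.0% (95% interval 22.4% to 46.8%), a log2 fold change of 0.42 (SE 0.06, edgeR adjusted p = 0.000162). Both calls held in every alternative setting tried, 14 in H1299 with log2 fold changes of 0.22 to 0.31 and 13 in A549 with 0.40 to 0.47.

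BICRA (ENSG00000063169), the paralogous scaffold, was the most thinly counted of the 10, with 159 to 257 counts per library. It was at 6.10, 4.11 and 4.79 CPM in BRM014-treated H1299, against 5.82, 4.97 and 5.26 CPM in DMSO-treated H1299. In A549 it was at 6.33, 5.03 and 4.57 CPM with BRM014, against 4.85, 4.67 and 3.83 CPM with DMSO. The groups overlapped in both lines and the treated libraries spread widely. The log2 fold change was -0.12 (SE 0.12, edgeR adjusted p = 0.562) in H1299 and 0.28 (SE 0.14, edgeR adjusted p = 0.133) in A549. The 95% interval in A549 ran from a change of -1.34% to one of 49.7%, which spans both no change and a rise as large as that of BICRAL. With a library left out, the A549 value was between 0.12 (without library a) and 0.38 (without BRM014 replicate 3), and the H1299 value between -0.29 (without BRM014 replicate 1) and 0.02 (without BRM014 replicate 2).

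BRD9 (ENSG00000028310), the bromodomain subunit that marks ncBAF, was at 108.6, 110.4 and 108 CPM in BRM014-treated H1299, against 102, 107 and 105 CPM in DMSO-treated H1299. In A549 it was at 54.6, 53.8 and 53.1 CPM with BRM014, against 59.8, 55.7 and 56.7 CPM with DMSO. Treated libraries lay above all controls in H1299 and below all controls in A549. Neither difference passed the threshold, with a log2 fold change of 0.06 (SE 0.03, edgeR adjusted p = 0.261) in H1299 and -0.07 (SE 0.05, edgeR adjusted p = 0.282) in A549.

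**Figure D2:**
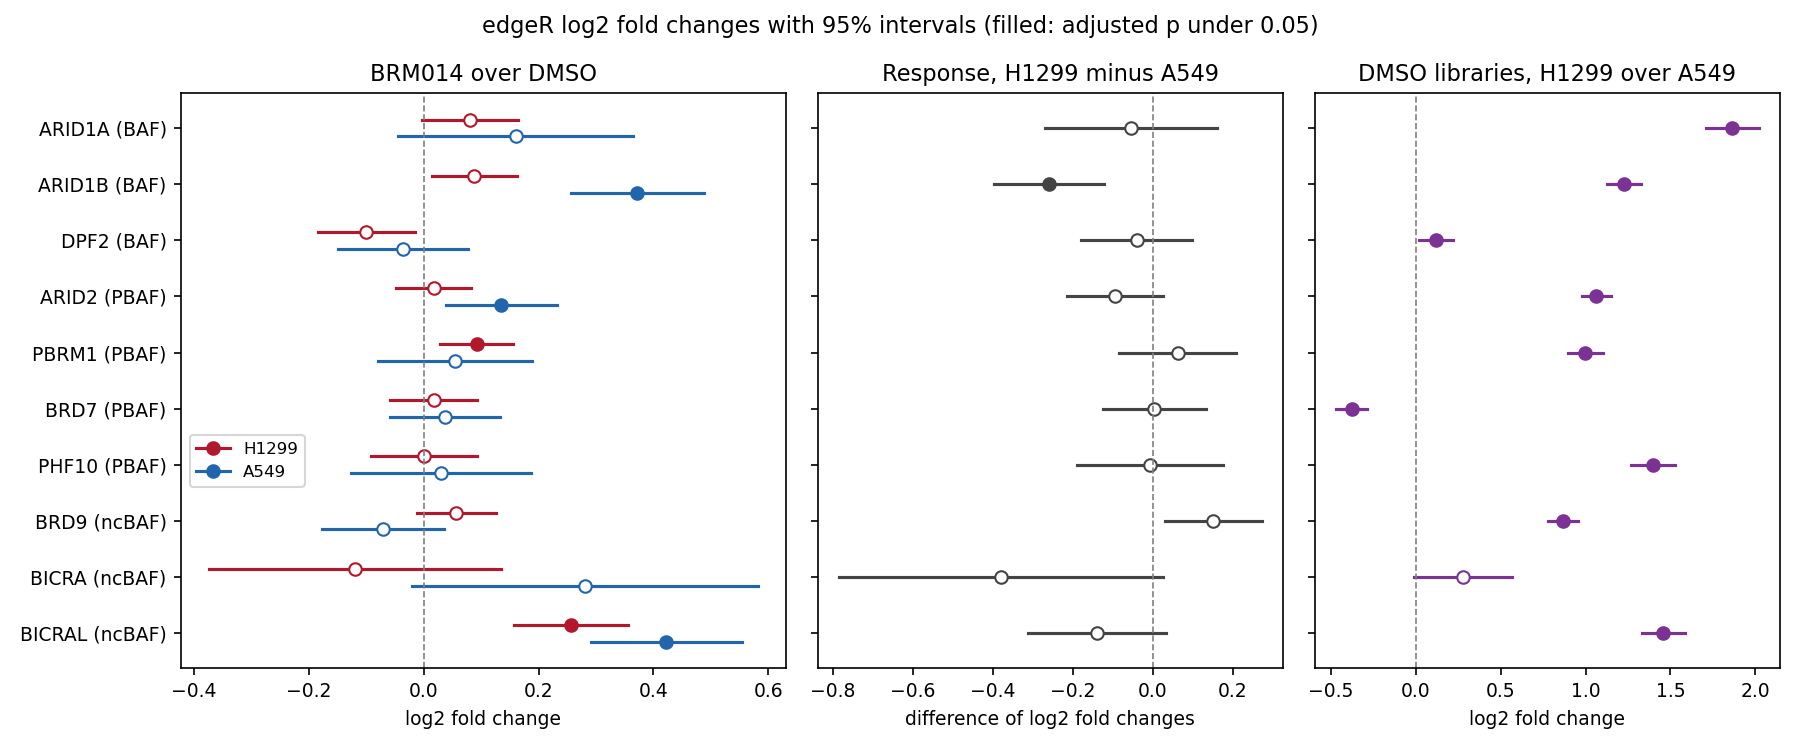
Log2 fold changes from edgeR with 95% intervals for the 10 genes (y axis), BRM014 over DMSO in H1299 (red) and A549 (blue) on the left, the difference of these responses (H1299 minus A549) in the middle, and H1299 over A549 in DMSO on the right; filled points have an adjusted p under 0.05. All responses to BRM014 lie between -0.12 and 0.42, whereas the differences between the lines reach 1.86.

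Read by complex, 0 of 3 BAF genes, 1 of 4 PBAF genes and 1 of 3 ncBAF genes rose in H1299. Of all genes tested there, 9.29% rose. In A549, 1 of 3 BAF genes, 1 of 4 PBAF genes and 1 of 3 ncBAF genes rose, beside 17.7% of all genes tested. With 3 or 4 genes each, such counts do not tell the complexes apart. BICRAL was the one member that rose in both lines, beside 4.31% of the 13675 genes tested in both. None fell in both, beside 6.26%, and 0 were called in opposite directions, beside 2.30%. The 4 called in either line stand beside 45.6% of these genes. Treated and control libraries did not overlap for 4 of the 10 genes in H1299 (PBRM1, BRD9 and BICRAL higher, DPF2 lower), beside 34.9% of all genes tested. In A549 they did not overlap for 5 of the 10 (ARID1B, ARID2 and BICRAL higher, DPF2 and BRD9 lower), beside 47.5%. The median log2 fold change of the 10 genes was 0.04 in H1299, beside 0.00 for all genes tested, and 0.09 in A549, beside 0.02. The median size of the log2 fold change without its sign was 0.08 in H1299, beside 0.10 for all genes, and 0.10 in A549, beside 0.16. All genes tested include many counted more thinly than most of the 10, and no background matched for level was used.

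For the genes without a call, the intervals bound the change. In H1299, the 7 uncalled genes other than BICRA had 95% intervals within -12.0% and 12.1%. In A549, the 6 uncalled genes other than BICRA had intervals within -11.6% and 28.8%, the upper end being that of ARID1A.

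The plot of fold change by level sets the 10 genes among all genes tested. In H1299, 10.0% of the 14986 genes tested had a higher log2 fold change than BICRAL, and 20.9% had a larger one of either sign. In A549, 9.66% of the 15188 genes tested had a higher log2 fold change than BICRAL, and 11.6% had a higher one than ARID1B. Those larger than ARID1B in either direction were 24.9%.

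**Figure D3:**
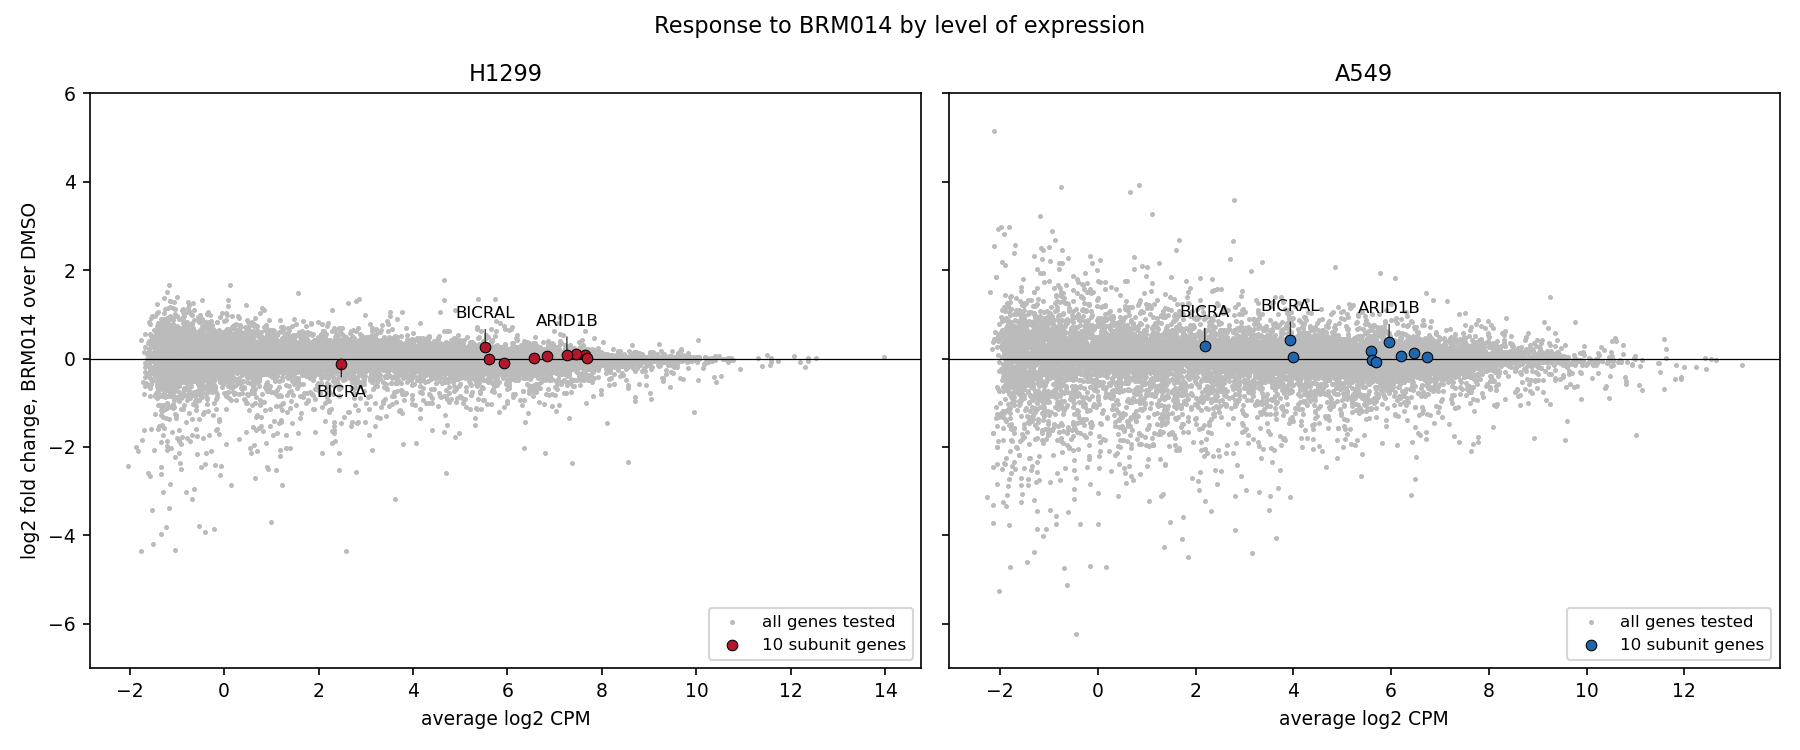
Log2 fold change of BRM014 over DMSO (y axis) against average log2 CPM (x axis) for all genes tested in H1299 (left) and A549 (right), with the 10 subunit genes as large points. They lie close to the zero line, BICRAL highest at 0.26 in H1299 and 0.42 in A549.

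The difference between the responses of the lines was tested as an interaction in the joined fit of the 12 libraries. ARID1B was the single member called, less positive in H1299 than in A549, with a difference of -0.26 on the log2 scale (SE 0.07, 95% interval -0.40 to -0.12, edgeR adjusted p = 0.00624). That is 1 of 10 genes, beside 19.5% of the 16466 genes tested, with 9.25% less positive in H1299. None of the 10 was called more positive in H1299 by edgeR, DESeq2 or limma-voom at an adjusted p under 0.05, beside 10.2%, and edgeR put 1 (BRD9) there at an unadjusted p under 0.05. The ARID1B call held in 18 of 18 alternative settings, with differences of -0.30 to -0.22. Adjusted p-values, from edgeR, DESeq2 or limma-voom by setting, were 0.00174 to 0.0269. BRD9 differed by 0.15 (SE 0.06, 95% interval 0.03 to 0.27), with its libraries moving in opposite directions in the lines. Its edgeR p was 0.0165 unadjusted and 0.0741 adjusted, and the adjusted p was 0.0495 when genes were kept at 5 CPM or more in at least 3 libraries. BICRAL differed by -0.14 (SE 0.08, 95% interval -0.31 to 0.03, edgeR adjusted p = 0.272), so its larger rise in A549 was not shown to differ from that in H1299. BICRA had the widest interval, -0.78 to 0.03. For ARID2 and PBRM1, each called in 1 line alone, the differences were -0.09 (edgeR adjusted p = 0.297) and 0.06 (edgeR adjusted p = 0.598), so neither response was shown to belong to 1 line. The intervals of the 8 uncalled genes other than BICRA ran from -0.31 to 0.27.

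Without the inhibitor the lines differed widely. In DMSO, 8 of the 10 genes were higher and 1 lower in H1299 than in A549, beside 42.9% of the genes tested that were higher and 42.8% that were lower. H1299 and A549 libraries did not overlap for any of the 10, beside 86.6% of all genes. The median log2 difference of the 10 was 1.03, beside 0.02 for all genes tested, and the median size without sign was 1.03, beside 0.84. These comparisons use the same DMSO libraries as the responses above. Line, growth medium (F12-K or RPMI) and PCR cycles (8 for H1299, 9 for A549) cannot be told apart in them.

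ARID1A differed most, at 181 ± 12.1 CPM in H1299 and 49.7 ± 4.90 CPM in A549 (SD, n = 3 each), a 3.64-fold difference (log2 1.86, SE 0.07, edgeR adjusted p = 1.68e-17). Its paralog ARID1B was at 138 ± 2.03 CPM in H1299 and 59.0 ± 2.33 CPM in A549, 2.34-fold higher in H1299 (log2 1.23, SE 0.05, edgeR adjusted p = 7.98e-18). DPF2 was nearly level between the lines, at 58.5 ± 0.736 CPM in H1299 and 53.9 ± 2.72 CPM in A549, 1.09-fold higher in H1299 (log2 0.12, SE 0.05, edgeR adjusted p = 0.0237). Within BAF, the line difference was thus large for the ARID subunits and small for the PHD-finger subunit. The DPF2 call was lost without H1299 DMSO replicate 1 or 2 or A549 DMSO replicate 2 or 3, with edgeR adjusted p-values of 0.0708, 0.0517, 0.111 and 0.203.

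Of the PBAF genes, ARID2 averaged 191 ± 5.39 CPM in H1299 and 91.5 ± 4.16 CPM in A549, a 2.09-fold difference (log2 1.06, SE 0.04, edgeR adjusted p = 1.00e-17). PBRM1 averaged 157 ± 1.83 CPM in H1299 and 78.5 ± 5.14 CPM in A549, 2.00-fold higher in H1299 (edgeR adjusted p = 1.71e-15). For PHF10 the averages were 45.2 ± 1.52 CPM in H1299 and 17.2 ± 1.53 CPM in A549, 2.63-fold higher in H1299 (edgeR adjusted p = 1.72e-16). BRD7 went the other way, the single member lower in H1299, with 87.9 ± 1.69 CPM in H1299 and 114 ± 3.82 CPM in A549. Its log2 difference was -0.38 (SE 0.04, 95% interval -0.47 to -0.29, edgeR adjusted p = 2.32e-08), a change of -23.0%.

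Of the ncBAF genes, BRD9 averaged 105 ± 2.40 CPM in H1299 and 57.4 ± 2.14 CPM in A549, 1.82-fold higher in H1299 (edgeR adjusted p = 6.39e-16). The bromodomain paralogs BRD9 and BRD7 thus differed between the lines in opposite directions, under every scaling tried. BICRAL averaged 39.0 ± 2.32 CPM in H1299 and 14.2 ± 0.407 CPM in A549, 2.75-fold higher in H1299 (edgeR adjusted p = 3.01e-17). BICRA, at 5.35 ± 0.434 CPM in H1299 and 4.45 ± 0.545 CPM in A549, had a log2 difference of 0.28 (SE 0.14, edgeR adjusted p = 0.0681). It was called with no filter on low counts (edgeR adjusted p = 0.0334), with the 5 CPM filter (0.0497) and with library totals without scaling (log2 0.50, edgeR adjusted p = 0.00274). It was also called without H1299 BRM014 replicate 1, A549 BRM014 library a or A549 DMSO replicate 1, with edgeR adjusted p-values of 0.0480, 0.0379 and 0.0374. Library totals moved the median difference of all genes to 0.24 on the log2 scale, from 0.02 with TMM scaling, so the changes of single genes there are read relative to that shift. For the 8 genes other than BICRA and DPF2, the call and its direction held in 18 of 18 settings.

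For the genes other than DPF2 and BICRA, the groups were ordered by line first. The order of BRM014 and DMSO within a line varied between genes. ARID1A, ARID1B, ARID2, PBRM1, PHF10, BRD9 and BICRAL had both H1299 groups above both A549 groups, and BRD7 had both A549 groups above both H1299 groups. For BICRAL the order had 4 separate steps, with means of 46.8 ± 2.42, 39.0 ± 2.32, 18.7 ± 0.161 and 14.2 ± 0.407 CPM in BRM014-treated H1299, DMSO-treated H1299, BRM014-treated A549 and DMSO-treated A549. For ARID1A, PHF10 and BRD7 the treated and control means of a line lay within the spread of their libraries. The group means of BICRA, 4.45 to 5.35 CPM, differed by less than 1.01 CPM, the SD of its treated H1299 libraries.

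Ratios of genes within a library do not depend on library scaling, and differences in such ratios between groups do not depend on gene length. They are described with no test. The log2 ratio of ARID1B to ARID1A was -0.38 ± 0.03 in BRM014-treated H1299, -0.39 ± 0.09 in DMSO-treated H1299, 0.46 ± 0.11 in BRM014-treated A549 and 0.25 ± 0.09 in DMSO-treated A549 (SD, n = 3 each). In DMSO the ratio in H1299 differed from that in A549 by -35.8%, with no overlap of libraries. Between DMSO and BRM014 it differed by 0.00 in H1299, where the libraries overlapped, and by 0.21 in A549. All treated A549 libraries lay above all controls, but by a narrow margin, 0.335 in library a against 0.317 in DMSO replicate 3. With a library left out, these differences were -0.04 to 0.04 in H1299 and 0.16 to 0.28 in A549. The balance between the alternative ARID subunits of BAF thus differed by line, and after BRM014 it differed in A549 by 16.0%.

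The log2 ratio of BICRAL to BICRA was 3.24 ± 0.25 in BRM014-treated H1299, 2.87 ± 0.03 in DMSO-treated H1299, 1.83 ± 0.24 in BRM014-treated A549 and 1.68 ± 0.19 in DMSO-treated A549. All treated H1299 libraries lay above all control H1299 libraries, a difference of 0.38, while the A549 groups overlapped, with a difference of 0.15. The margin in H1299 was narrow, 2.96 in BRM014 replicate 1 against 2.90 in DMSO replicate 2. BICRAL itself rose in both lines. The ratio also rests on the thinly counted BICRA, whose uncalled log2 fold changes were -0.12 in H1299 and 0.28 in A549. Leaving out a library gave 0.29 to 0.52 in H1299 and 0.06 to 0.28 in A549, the lowest without BRM014 replicate 3 and the highest without library a. In DMSO, the difference between H1299 and A549 was 1.18 with no overlap. The log2 ratio of ARID2 to ARID1A, which sets the ARID subunits of PBAF and BAF side by side, was 0.02 ± 0.09 in BRM014-treated H1299, 0.08 ± 0.11 in DMSO-treated H1299, 0.86 ± 0.21 in BRM014-treated A549 and 0.88 ± 0.18 in DMSO-treated A549. Treated and control libraries overlapped in both lines, and the lines did not overlap. The difference between treated and control libraries, with a library left out, was -0.11 to -0.00 in H1299 and -0.12 to 0.10 in A549.

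**Figure D4:**
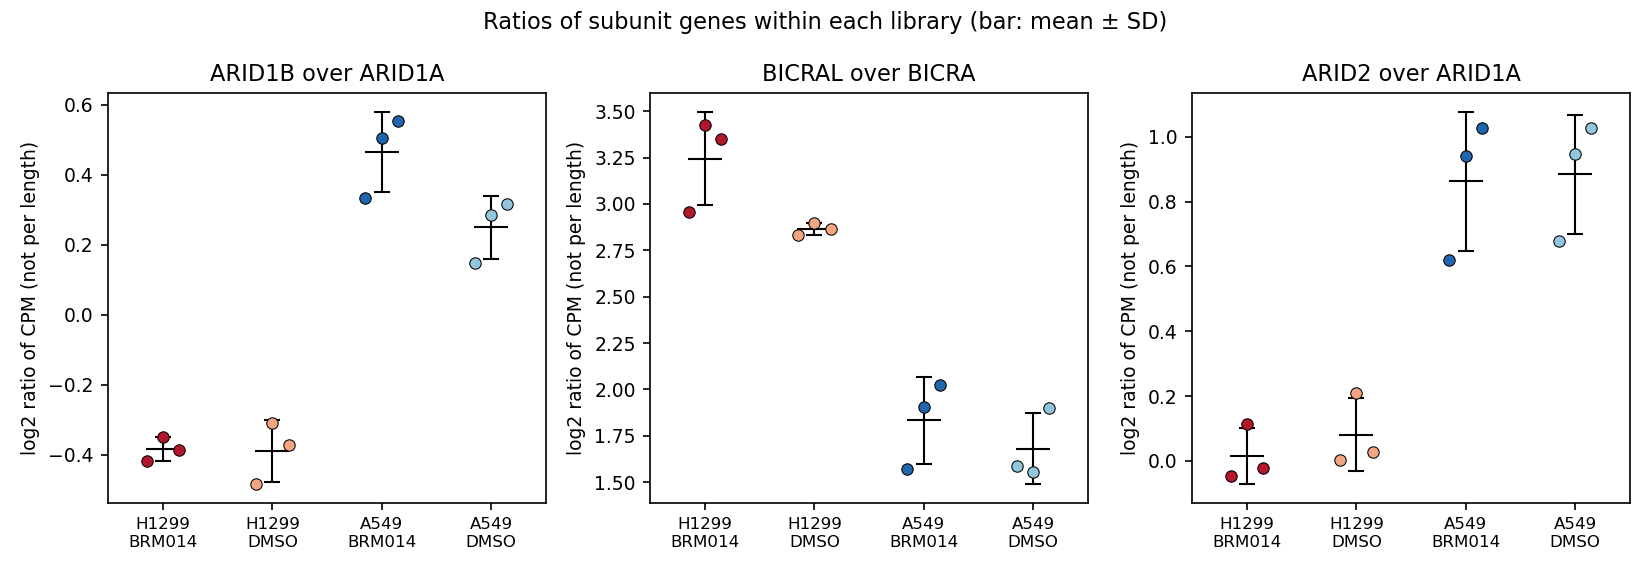
Log2 ratio of CPM (y axis, not per length, a scale for each panel) of ARID1B to ARID1A, BICRAL to BICRA and ARID2 to ARID1A in the 12 libraries, with the mean ± SD of each group. The lines separate in all 3 panels. Treated and control libraries separate, by narrow margins, for ARID1B over ARID1A in A549 and for BICRAL over BICRA in H1299.

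Summed over the 10 genes, the level was 1050 ± 24.2 CPM in BRM014-treated H1299, 1008 ± 14.7 CPM in DMSO-treated H1299, 572 ± 5.98 CPM in BRM014-treated A549 and 540.1 ± 8.00 CPM in DMSO-treated A549. The sum in DMSO was 1.87-fold higher in H1299 than in A549, with 2.32-fold for the BAF genes, 1.60-fold for the PBAF genes and 1.96-fold for the ncBAF genes. BAF genes held 37.5 ± 1.40% of the sum in BRM014-treated H1299, 37.5 ± 0.902% in DMSO-treated H1299, 31.8 ± 1.75% in BRM014-treated A549 and 30.1 ± 1.79% in DMSO-treated A549. PBAF genes held 47.2 ± 1.41%, 47.8 ± 0.776%, 54.6 ± 2.01% and 55.8 ± 2.31% in the same groups. The lines therefore differed in the mRNA balance of these subunits, with no overlap of DMSO libraries for BAF or PBAF genes, whereas BRM014 and DMSO libraries of a line overlapped for both. The ncBAF share was 15.3 ± 0.292% in BRM014-treated H1299, against 14.8 ± 0.171% in DMSO-treated H1299, with no overlap, and 13.6 ± 0.286% in BRM014-treated A549, against 14.1 ± 0.523% in DMSO-treated A549, with overlap. With a library left out, the difference in the ncBAF share between BRM014 and DMSO was 0.391 to 0.682 percentage points in H1299 and -0.672 to -0.165 in A549. For the BAF share it was -0.494 to 0.831 in H1299 and 0.738 to 2.71 in A549, and for the PBAF share -1.34 to 0.0223 in H1299 and -2.55 to -0.180 in A549. These shares weigh each count equally and measure mRNA alone; protein and assembled complexes were not measured here.

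Libraries within a group also differed along a shared pattern. In A549, it was seen in library a of the BRM014 group and replicate 1 of the DMSO group. Both had the highest ARID1A, ARID1B, DPF2, BRD9 and BICRA and the lowest ARID2, PBRM1 and PHF10 of their groups. ARID1B and ARID2, both called in A549, are thus among the genes that carry the pattern. The log2 ratio of ARID2 to ARID1A was 0.62 in that BRM014 library and 0.68 in that DMSO library, the lowest of the A549 libraries, which reached 1.03. The part of this pattern in the A549 results was not tested beyond leaving out each library in turn.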

How the data were processed

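The authors deposited unnormalized whole-number counts per gene, with H1299 and A549 in separate tables. Per the labels' protocols, stranded libraries came from 500 ng of total RNA after removal of ribosomal RNA. Per the submitters' processing notes, the tools were STAR 2.7.3a, Bowtie 1.2.2, cutadapt 1.14, DESeq2 and featureCounts, and the build hg38, with the role of each tool, the annotation and the strand setting not given in the sources used here, so that genes overlapping or antisense to others have uncertain counts. The titles give DMSO at 0.05% and the treatment field at 0.5%.

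The counts were tested with edgeR 4.0.16 in R 4.3.3: filterByExpr (count minimum 10, total minimum 15), TMM scaling, and the two-sided quasi-likelihood test over all genes at an adjusted p of 0.05. Each line was fitted alone, and the 12 libraries were joined over shared identifiers for the interaction and for the DMSO contrast. All 10 genes passed the filter in each fit. Standard errors were derived from each log2 fold change and the root of its F statistic. Alternatives used DESeq2 1.42.0, limma 3.58.1 (voom), other scalings and filters, the replicate block, and each library left out in turn. The steps were also run on simulated counts with known changes and the same dispersion setting for every gene. That simulation held no pattern shared across the genes of a library, so it does not show how the tests behave under such a pattern. Replicates differed by more than sampling noise in each pair, with 2.20 to 11.1 chi-square units per degree of freedom over genes of 20 or more counts. All 10 genes were described whatever their values. They and the lists were chosen with earlier results of these data known. Lists of other SWI/SNF genes, other bromodomain genes and cell type markers were not analysed here, since 0 of the identifiers matched the name tables at hand; for the same reason, the lines were not checked against their markers, and no coordinates or sequences are given.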

Additional observations from a re-analysis of the deposited data

Results flagged for a closer look

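The response of ARID1B to BRM014 was marked because it differed between the lines by a test of the difference itself. The difference of the log2 fold changes, H1299 minus A549, was -0.26 (edgeR adjusted p = 0.00624), with treated libraries above all controls in A549 and overlapping them in H1299.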

How the results depend on the processing

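Of 629 comparisons of a gene under an alternative setting, 578 kept their direction and side of the threshold, 13 lost a call, 13 gained one and 25 changed sign, all of them uncalled values near 0. The number of the 10 genes called in H1299 was 2, against 4 with library totals (ARID1A and ARID1B added) and 1 in the joined fit, and 1 to 4 with a library left out. Leaving out a library gave 2 to 3 in A549 and 8 to 10 between the lines in DMSO. The interaction called 2 with the 5 CPM filter (BRD9 added). BICRA was not tested in A549 under that filter. Library totals moved the share of all called genes that were higher from 42.2% to 58.4% in H1299, from 47.7% to 60.9% in A549, from 52.5% to 40.7% in the interaction and from 50.1% to 59.0% in DMSO. Among values that changed sign, DPF2 in A549 was at 0.014 and the BRD7 interaction at -0.036 with library totals. With a library left out, H1299 values ran from -0.027 to 0.037 for PHF10, -0.014 to 0.050 for BRD7, -0.0078 to 0.034 for ARID2 and -0.29 to 0.020 for BICRA. In A549 they ran from -0.0013 to 0.099 for PBRM1, -0.061 to 0.011 for DPF2 and -0.038 to 0.072 for PHF10. Interactions ran from -0.049 to 0.066 for PHF10, -0.14 to 0.055 for ARID1A and -0.032 to 0.041 for BRD7. The cause was not tested.

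With the replicate block in H1299, 2 of the 10 genes and, of all genes, 1376 upward and 1896 downward were called, and PHF10 was at -0.0036. Deviations of same-numbered libraries correlated at -0.0837, -0.0209 and 0.0274, so no deviation shared by same-numbered libraries was seen. With 3 libraries per group, these values cannot show whether same-numbered libraries were handled together. No paired analysis was possible in A549 because replicate 3 alone carries its own number in both of its groups' columns. At these depths BICRA, the gene with the fewest counts, limits the set: counting error alone comes to about 7% of its level.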
